A study of Mus musculus with 24 samples.

Results

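The genes described here are 56 genes of mitosis, and all 56 were among the 15736 genes counted in mouse otocyst epithelium. They were chosen by name for what their proteins do in the dividing cell, with earlier results of these data known. By role, there were 7 kinetochore genes, 5 spindle checkpoint genes, 4 chromosomal passenger complex genes and 11 kinases, cyclins and phosphatases of mitotic entry. The others were 4 ubiquitination genes, 12 spindle microtubule genes, 5 cytokinesis genes and 8 genes of condensin and the mitotic chromosome. The otocyst is the epithelial vesicle that forms the inner ear. Embryos of the control group (con) carried Rosa26rtTA/+, a doxycycline-dependent activator expressed from a ubiquitous locus, and those of the experimental group (R2b) also carried Tg(tetO-s(dn)Fgfr2b)/+. That transgene encodes a soluble, dominant-negative form of the FGF receptor FGFR2b, which binds the ligands of this receptor outside the cell. All dams, and so both genotypes, received doxycycline, as an injection of 1.5 mg/kg followed by chow with 200 mg/kg. The 12 h exposure (E9.75+12h in the plots) began at embryonic day E9.75 and ended at stage E10.25. An early 24 h exposure (E9.25+24h) began at E9.25 and reached that same stage. A late 24 h exposure (E10.25+24h) began at stage E10.25, and its otocysts were taken at E11.25. Otocysts were pooled by genotype within each litter, so a litter gave 1 con and 1 R2b pool, and 3 litters of the 12 h exposure and 4 of each 24 h exposure were used. Each exposure had its own litters and its own number prefix in the sample titles, so levels in different exposures were not compared. In pools of whole epithelium, fewer cells in mitosis and less RNA per cell cannot be told apart.

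Most of these genes are transcribed late in the cell cycle, and their proteins and mRNAs are largely removed after division, so that in a growing tissue their mRNA is carried mainly by cells in G2 and M phase. Kinetochore proteins attach each chromosome to spindle microtubules, and the spindle checkpoint holds back anaphase until every kinetochore is attached. Cyclin-bound Cdk1 drives entry into mitosis, ubiquitination by the anaphase-promoting complex ends it, and the cytokinesis proteins then divide the cell. The otocyst epithelium proliferates during these stages, and FGF signalling is a known regulator of its growth and patterning.

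Library totals ranged from 18.7 to 28.2 M counts, and the member with the fewest counts still had 16347 over the 22 libraries. Reads assigned to Ighg1, an immunoglobulin heavy chain gene, separated the genotypes in the 12 h and early 24 h exposures and served as the check of the labels. In both it had at most 36 counts in a con pool and at least 19414 in an R2b pool. In the late 24 h exposure the library labelled con of litter 1 had 15754 Ighg1 counts, that labelled R2b of the same litter had 1504, and the library labelled con of litter 3 had 5106. The summed level of 14 readout genes of FGF signalling was 537 CPM in the library labelled con of litter 1, against 962 to 1007 CPM in the others labelled con. In the library labelled R2b of litter 1 it was 944 CPM, against 585 to 769 CPM in the others labelled R2b. The labels of litter 1 thus went against its transgene reads, so the late 24 h exposure is given with and without that litter. The library labelled con of litter 3 was kept in both, despite its transgene reads. Otic epithelium markers summed to between 2327 and 8214 CPM over the libraries. Of the markers in the table, none was at 0 in a whole group. No gene in the table had fewer than 100 counts over the libraries, so absent markers could not appear. The table held 5 hindbrain, 10 blood and 11 otic neuroblast and neuron markers, fewer than were listed.

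After 12 h of doxycycline the mitotic genes fell together in R2b otocysts. Their summed level was 10409, 10578 and 10070 CPM in the con pools of litters 1, 2 and 3, and 4767, 5483 and 6265 CPM in the R2b pools of the same litters (CPM are counts scaled to library depth). The mean was thus 10352 ± 259 CPM in con and 5505 ± 749 CPM in R2b (SD, n = 3), and every R2b pool lay below every con pool. By edgeR's quasi-likelihood test, with a Benjamini-Hochberg adjusted p (FDR) under 0.05 over 14882 genes, 55 of the 56 members fell and 0 rose. Over all genes tested, 9.78% were called lower. Log2 fold changes (R2b minus con) ran from -1.20 for Cip2a to -0.02 for Cdc25b, with a median of -0.94, or 47.8% lower, against a median of 0.01 over all genes. For 55 members the groups did not overlap, with every R2b pool below every con pool, and the groups did not overlap in either direction for 38.9% of all genes.

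**Figure D1:**
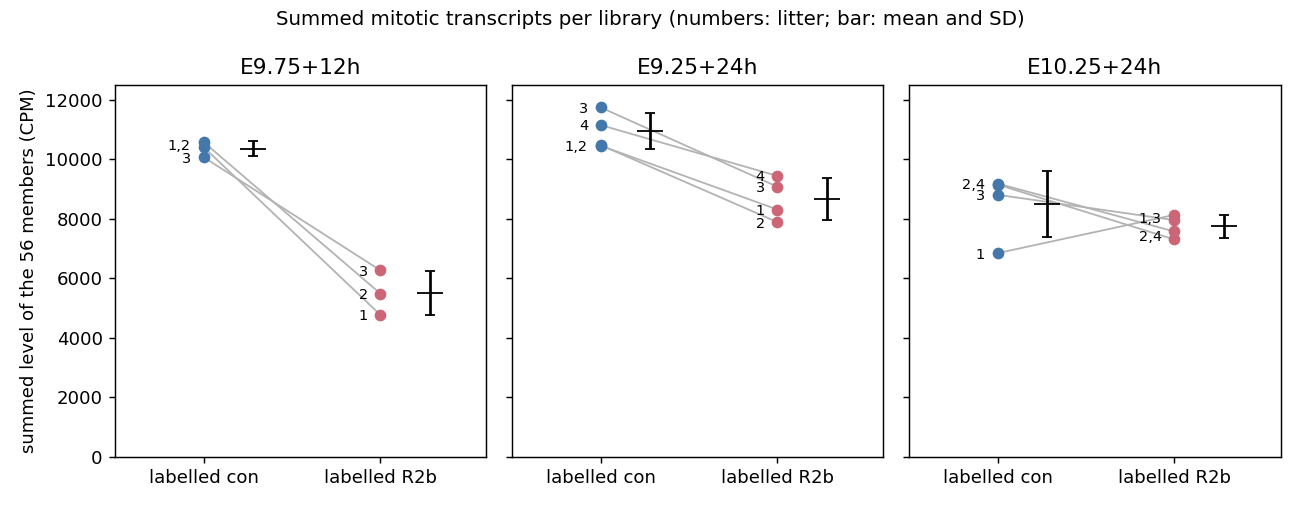
Summed CPM of the 56 members in each library, by labelled genotype and exposure. Points are pools marked with their litter number, grey lines join the pools of a litter, and black bars are the mean and SD; the R2b pools lie below the con pools in the first and second panels, while litter 1 of the third panel runs the other way.

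All 7 kinetochore genes fell, with a median of -1.12. Cenpf, a large protein of the outer kinetochore corona, was at 339.9, 386 and 335 CPM in the con pools and 150.3, 149 and 177 CPM in the R2b pools, in the order of litters 1, 2 and 3. Its mean was 354 ± 28.3 CPM in con and 159 ± 15.7 CPM in R2b (SD, n = 3), a log2 fold change of -1.16 ± 0.10 (SE, with an FDR of 0.000335). Cenpe, the kinesin motor that carries chromosomes along microtubules, was at 215, 233 and 205 CPM in the con pools and 82.1, 103 and 105 CPM in the R2b pools. The R2b pools of both genes were within a narrow range below the con pools. The Ndc80 complex, the main microtubule binder of the kinetochore, had 3 subunits among the members, and Ndc80, Nuf2 and Spc25 fell by 1.12, 1.13 and 0.98 on the log2 scale. The centromeric histone variant Cenpa fell by 0.91. Its chaperone Hjurp was at 196, 210.3 and 178 CPM in the con pools and 119, 101 and 159 CPM in the R2b pools, and its fold change, -0.63 ± 0.15 (SE, with an FDR of 0.0134), was the smallest of the class. The R2b pool of litter 3 was the highest of the 3 for Hjurp and lay close to the con pools.

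The 5 spindle checkpoint genes fell as well, with a median of -1.06 and a wider spread. Bub1, a checkpoint kinase at the kinetochore, was at 165, 159 and 158 CPM in the con pools and 66.9, 79.7 and 81.3 CPM in the R2b pools. Bub1b, which encodes the BubR1 part of the inhibitor of the anaphase-promoting complex, was at 234, 255 and 220.3 CPM in the con pools and 96.2, 109 and 124 CPM in the R2b pools, and its log2 fold change was -1.11 ± 0.11 (SE, with an FDR of 0.000399). For these genes the con pools were well above the R2b pools in each litter. The kinase Ttk and the inhibitor subunit Mad2l1 changed by -1.06 and -0.89. Bub3, the adaptor that brings Bub1 and BubR1 to the kinetochore, was at 298, 283 and 294 CPM in the con pools and 206, 189.6 and 243 CPM in the R2b pools. Its log2 fold change of -0.45 ± 0.10 (SE, with an FDR of 0.0124) was the smallest of the 55 that fell. Bub3 lies at chr7:131560222-131571895 on the plus strand of GRCm38 and overlaps the span of the Fgfr2 gene model on the other strand. Reads assigned to Fgfr2 were higher in the R2b pools. The overlap is of whole gene spans, and whether exons overlap was not examined. The strand setting of the counting was not given in the sources used here, so reads from any shared exons cannot be told apart. Their part in the Bub3 value was not tested. The spans of Cdc20, Ncapg, Nusap1, Cdc25b, Ccna2, Gpsm2, Cdca8, Tacc3 and Prc1 also overlap that of a counted gene on the other strand.

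The chromosomal passenger complex, which corrects faulty attachments and guides cytokinesis, was represented by all 4 of its core genes, and all of them fell. Its scaffold Incenp was at 236, 293 and 245 CPM in the con pools and 116, 133 and 182 CPM in the R2b pools, and its borealin subunit Cdca8 at 130.2, 154 and 136 CPM in the con pools and 64.5, 67.1 and 77.1 CPM in the R2b pools. For Incenp the R2b pool of litter 3 was the highest of the R2b pools but still below each con pool. The kinase Aurkb, the scaffold Incenp, the survivin gene Birc5 and Cdca8 had log2 fold changes of -0.84, -0.84, -0.92 and -1.01.

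Among the 11 genes of mitotic entry, 10 fell and 1 did not pass the test. Cdk1, the kinase that triggers mitosis, was at 154, 141 and 145 CPM in the con pools and 60.5, 74.3 and 83.7 CPM in the R2b pools, a log2 fold change of -1.01 ± 0.12 (SE, with an FDR of 0.000609). Its S and G2 phase partner, cyclin A2 (Ccna2), was at 353, 335 and 357 CPM in the con pools and 149, 186 and 219 CPM in the R2b pools. In both genes the R2b pool of litter 1 was the lowest and that of litter 3 the highest. The mitotic cyclins Ccnb1 and Ccnb2 fell by 1.13 and 0.82 on the log2 scale. Cip2a, an inhibitor of the phosphatase PP2A, was at 127, 114 and 106 CPM in the con pools and 43.2, 52.7 and 54.9 CPM in the R2b pools, and its mean fell from 115 ± 10.8 to 50.3 ± 6.27 CPM (SD, n = 3), by 1.20 ± 0.12 (SE) on the log2 scale. That was the largest fold change among the 56 members. The exception was Cdc25b, a phosphatase that activates cyclin-bound Cdk1, which was at 64.6, 59.2 and 55.5 CPM in the con pools and 61.9, 54.0 and 60.8 CPM in the R2b pools. Its groups overlapped, and its log2 fold change was -0.02 ± 0.11 (SE, with an FDR of 0.907). Cdc25c, the related phosphatase, was called lower by 0.998, from 34.1 ± 3.40 to 17.1 ± 2.24 CPM. The polo kinase Plk1, the kinase Aurka and its cofactor Bora changed by -0.85, -0.91 and -0.61, and the centrosomal kinase Nek2 by -0.89.

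The 4 ubiquitination genes fell by less at the median, -0.76, than the kinetochore genes at -1.12. This difference between classes was not tested. Ube2c, the conjugating enzyme of the anaphase-promoting complex, was at 209, 181 and 226 CPM in the con pools and 102, 105 and 155 CPM in the R2b pools. Cdc20, which activates that complex, was at 124, 136 and 125 CPM in the con pools and 75.4, 59.3 and 94.0 CPM in the R2b pools. For both genes the R2b pool of litter 3 stood above the other R2b pools. The log2 fold changes of Cdc20, Ube2c, Cdca3 and G2e3 were -0.75, -0.77, -0.89 and -0.74.

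Each of the 12 spindle microtubule genes fell, with a median of -0.92. Tpx2, which nucleates microtubules near chromosomes and activates Aurka, was at 500.1, 492 and 511 CPM in the con pools and 210.4, 256 and 306 CPM in the R2b pools, a log2 fold change of -0.96 ± 0.13 (SE, with an FDR of 0.000886). Ckap5, a microtubule polymerase that also acts outside mitosis, was at 397, 391 and 406 CPM in the con pools and 229, 268 and 258 CPM in the R2b pools, a log2 fold change of -0.66 ± 0.09 (SE, with an FDR of 0.00117). The R2b pools of Ckap5 lay closer together than those of Tpx2. Aspm, a spindle pole protein, fell by 1.01, and Gpsm2, which orients the spindle at the cell cortex, by 0.63. The pole and microtubule proteins Hmmr, Tacc3, Nusap1 and Dlgap5 changed by -1.02, -1.002, -0.98 and -0.96.

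The 5 cytokinesis genes spanned the narrowest range of the classes, with log2 fold changes between -1.08 and -0.98. Prc1, which bundles antiparallel microtubules in the spindle midzone, was at 227, 211 and 199 CPM in the con pools and 87.1, 110.2 and 122 CPM in the R2b pools. Racgap1, a subunit of centralspindlin, was at 191, 193 and 174 CPM in the con pools and 82.7, 91.5 and 109.6 CPM in the R2b pools. In both, the con pools did not reach down to the R2b pools, and the fold changes were -0.997 ± 0.12 (SE, with an FDR of 0.000737) and -0.98 ± 0.11 (SE, with an FDR of 0.000571). The cleavage furrow protein Ect2, the actin-binding anillin (Anln) and the abscission protein Cep55 fell by 0.98, 0.99 and 1.08.

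All 8 condensin and chromosome genes fell, with a median of -0.93. Top2a, the topoisomerase that untangles sister chromatids, was at 798, 836 and 739 CPM in the con pools and 283, 394 and 453 CPM in the R2b pools, a log2 fold change of -1.07 ± 0.15 (SE, with an FDR of 0.00116). Mki67, which coats mitotic chromosomes and is a common marker of cycling cells, was at 859.7, 943 and 883 CPM in the con pools and 413, 427 and 519.8 CPM in the R2b pools. These had the highest CPM among the members, and in both the R2b pool of litter 1 was the lowest. The 5 subunits of the condensin I complex, which compacts chromosomes, had fold changes of different size, and these differences between genes were not tested. Its ATPases Smc4 and Smc2 fell by 1.16 and 0.86, and its other subunits Ncapg, Ncapd2 and Ncaph by 1.14, 0.70 and 0.64. The phosphatase adaptor Cdca2 changed by -0.88.

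**Figure D2:**
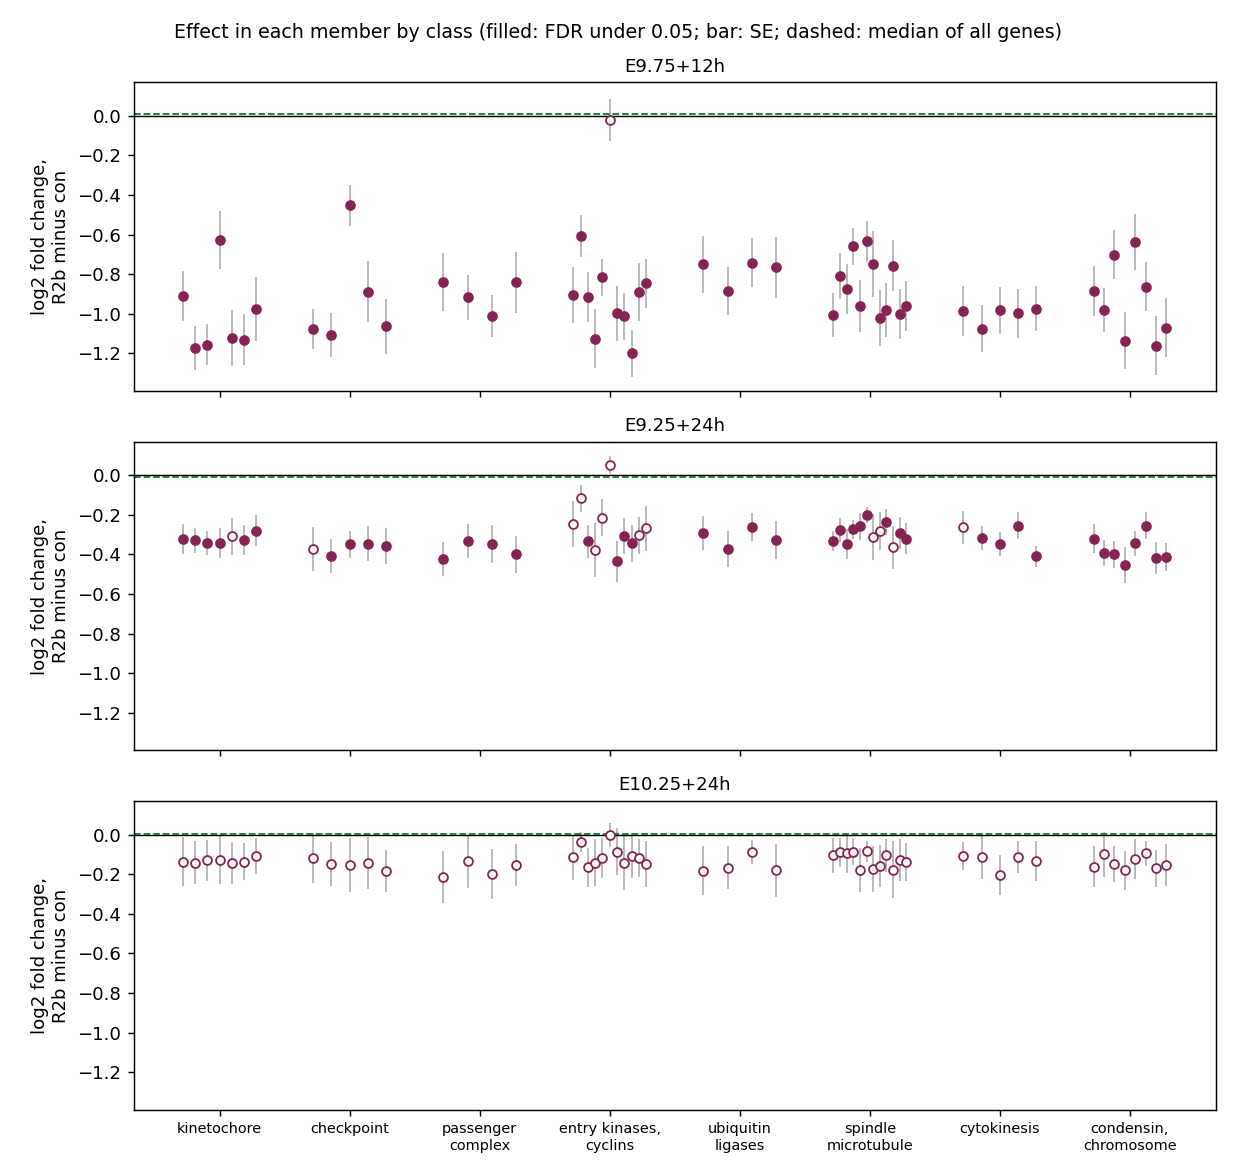
Log2 fold change (R2b minus con, as labelled) of each member, with members in alphabetical order within each class. Bars are the SE, filled points passed an FDR under 0.05 and the dashed line is the median of all genes; 55 points are filled in the first panel, 43 in the second and 0 in the third, and Cdc25b is the open point of the first panel.

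By litter, the median difference of the members in the 12 h exposure was -1.16, -1.0 and -0.71 in litters 1, 2 and 3, and 56, 56 and 55 of 56 were lower, against 49.1%, 48.2% and 49.7% of all genes. The summed level of the members was lowest in the R2b pool of litter 1 and highest in that of litter 3. Ighg1 reads in these R2b pools were 1464, 2979 and 1001 CPM in litters 1, 2 and 3. The pool with the most transgene reads was not the one with the lowest members, but the pool with the fewest had the highest. The FGF readout genes summed to 364, 408 and 520 CPM in the same pools, in the order of the members. A link between these levels was not tested. With litter as a block, 55 members were called lower, and 6.13% of all genes. Leaving out litter 1 left 39 calls (2.92% of genes in either direction), or 35 with the block (1.79%). Leaving out any other litter, with or without the block, left 54 or 55 (10.6% to 27.1% of genes). Otic epithelium markers summed to 3901 to 4195 CPM in con and 4368 to 5202 CPM in R2b, so that every R2b pool was higher, with 5 of 12 called higher and 1 lower. Otic neuroblast and neuron markers were also higher in R2b: their summed level was 296 to 337 CPM in con and 437 to 504 CPM in R2b, and 6 of 11 were called higher. Of all 14882 genes 1518 were called higher, and 20% in either direction. Hindbrain markers summed to 7.48 to 10.6 CPM in con and 15.4 to 18.5 CPM in R2b. Blood markers ranged from 20.6 to 769 CPM in con and from 91.7 to 117 CPM in R2b, endothelial markers from 17.7 to 63.1 and from 21.6 to 44.7 CPM, and mesenchyme markers from 127 to 386 and from 255 to 428 CPM. The part of these cells, otic epithelium included, in the fall of the mitotic genes was not tested.

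Many promoters of mitotic genes carry a cell cycle genes homology region (CHR), a short element near the start site that MuvB complexes bind, together with CCAAT boxes bound by the factor NF-Y. RefSeq windows on GRCm38.p6, from 250 bases before to 50 bases after a start, were found for 47 members, which had 53 windows. Both strands were searched for TTTGAA or TTCGAA as CHR letters and for CCAAT. The CHR letters were present in 75.5% of the member windows, in 19.2% of all 32851 windows and in 13.6% of the windows of genes in the count table. CCAAT was present in 79.2% of member windows and 37.4% of all windows, and both kinds in 67.9% and 7.52%. Of the 52 CHR matches in member windows, 38 (73.1%) began within 50 bases of the start, against 25.2% over all windows. Of the 30 S phase genes listed for comparison, 26 had windows, and 20.7% of those windows held the CHR letters and 69.0% CCAAT. Of the 49 mitosis genes that are no members, 40 had windows, and 44.4% of these windows held the CHR letters and 62.2% CCAAT.

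**Figure D3:**
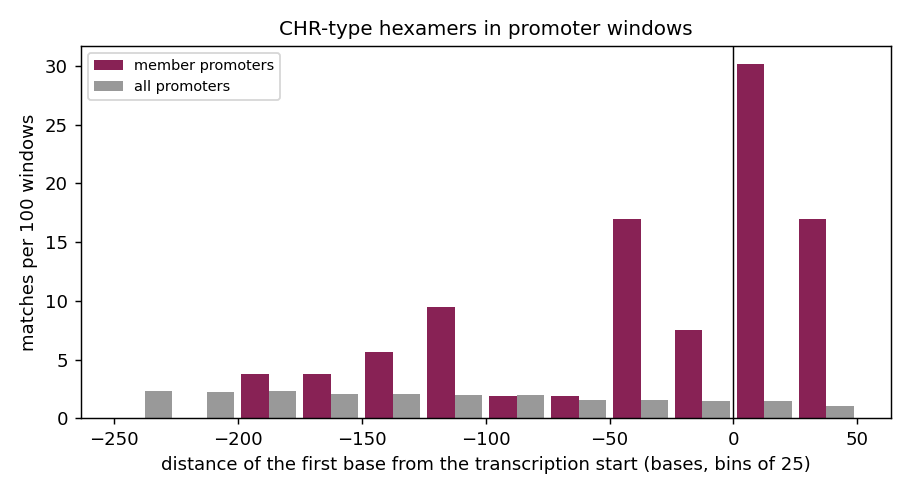
Matches to TTTGAA or TTCGAA on either strand per 100 promoter windows, in bins of 25 bases from the transcription start, for the windows of the members and for all windows. The member bars are tallest in the bins around the start, up to 30.2 per 100 windows, where all windows hold 1.44 per 100.

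The 120 bases up to the start are printed for 8 members, chosen after their values were seen, to show both elements and the windows that lack one. Capitals mark CHR letters or CCAAT on either strand (TTCAAA and ATTGG are their reverse complements), and each line reads 5′ to 3′ towards the start of the gene. The stretches are Cdk1 at chr10:69352913-69353032 (minus strand), Top2a at chr11:99024190-99024309 (minus strand), Ncapg at chr5:45669805-45669924 (plus strand), Cdc20 at chr4:118437344-118437463 (minus strand), Racgap1 at chr15:99651657-99651776 (minus strand), Ckap5 at chr2:91526642-91526761 (plus strand), Cip2a at chr16:48994068-48994187 (plus strand) and Cdc25b at chr2:131186828-131186947 (plus strand). Cdk1, Top2a, Cdc20 and Ckap5 hold both elements here, Ncapg only CHR letters, and Cip2a, the member with the largest fall after 12 h, only CCAAT. Cdc25b and Racgap1 hold a CCAAT here and CHR letters just past the start.
Cdk1: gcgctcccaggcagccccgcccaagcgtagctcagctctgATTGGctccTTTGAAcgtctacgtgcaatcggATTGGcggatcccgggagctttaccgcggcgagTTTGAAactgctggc
Top2a: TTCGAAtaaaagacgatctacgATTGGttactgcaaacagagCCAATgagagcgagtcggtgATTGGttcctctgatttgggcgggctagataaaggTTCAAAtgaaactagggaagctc
Ncapg: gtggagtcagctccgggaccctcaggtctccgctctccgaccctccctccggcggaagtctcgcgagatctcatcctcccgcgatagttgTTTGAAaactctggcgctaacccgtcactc
Cdc20: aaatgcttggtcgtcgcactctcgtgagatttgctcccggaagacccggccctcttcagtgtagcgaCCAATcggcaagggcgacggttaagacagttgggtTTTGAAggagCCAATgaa
Racgap1: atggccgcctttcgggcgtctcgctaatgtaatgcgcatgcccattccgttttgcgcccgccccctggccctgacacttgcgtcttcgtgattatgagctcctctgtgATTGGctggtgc
Ckap5: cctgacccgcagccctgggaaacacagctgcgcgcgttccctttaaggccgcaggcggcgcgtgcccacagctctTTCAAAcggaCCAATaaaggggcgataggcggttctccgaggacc
Cip2a: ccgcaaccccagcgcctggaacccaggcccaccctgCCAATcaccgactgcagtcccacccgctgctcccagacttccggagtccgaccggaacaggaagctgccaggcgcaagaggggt
Cdc25b: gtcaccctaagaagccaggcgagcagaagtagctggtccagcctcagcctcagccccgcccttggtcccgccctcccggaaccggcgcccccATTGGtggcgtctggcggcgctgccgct

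Members with and without the letters had like effects at the median. In the 12 h exposure the 35 members with CHR letters in a window had a median log2 fold change of -0.98 and the 12 without them -0.95. In the early 24 h exposure these medians were -0.33 and -0.33. Cdc25b, which did not pass the test in any exposure, held both elements. A match describes letters and no binding, and the lack of one says only that the letters are not in the window.

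After 24 h of doxycycline from E9.25, which ended at the same stage as the 12 h exposure, most of the mitotic genes fell in R2b otocysts. Their summed level was 10457, 10477, 11744 and 11151 CPM in the con pools of litters 1 to 4 and 8309.9, 7886, 9077 and 9440.0 CPM in the R2b pools. The means were 10957 ± 616 and 8678 ± 708 CPM (SD, n = 4), and all R2b pools lay below all con pools. The edgeR test called 43 of 56 members lower and 0 higher, where 6.5% of 14979 genes were called lower. The median log2 fold change was -0.33, or 20.3% lower, against -0.01 over all genes, and values ran from -0.45 for Ncapg to 0.05 for Cdc25b. For 40 members the groups did not overlap, each with all R2b pools lower, and the groups did not overlap in either direction for 22.4% of all genes. With the litter as a block 55 members were called lower, at 20.1% of all genes. The 43 calls depended on single pools in the test without the block: there was 1 call without litter 1, 6 without litter 2, 21 without litter 3 and 38 without litter 4. In these fits 2.15%, 3.06%, 7.42% and 14.2% of all genes were called in either direction, so the single call without litter 1 was near the share of all genes. Without the con pool of litter 3 there were 22 calls (9.19% of genes), and without the R2b pools of litters 1 and 2 there were 12 (5.4%) and 19 (6.18%). With the block, leaving out a litter left 54 or 55 calls, where 29.6% to 41.2% of all genes were called in either direction.

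Each class had a median below 0, from -0.40 to -0.29. Kinetochore genes had a median of -0.33, and 6 of 7 fell. Cenpf was at 429.7, 409, 444 and 407 CPM in the con pools and 336, 302, 332 and 362 CPM in the R2b pools, in the order of litters 1 to 4, a log2 fold change of -0.34 ± 0.06 (SE, with an FDR of 0.00843). Cenpe was at 244, 243, 259.7 and 257 CPM in the con pools and 191, 181, 206 and 221 CPM in the R2b pools, and Hjurp was at 224, 234, 238 and 249.6 CPM in the con pools and 179, 163, 192 and 211 CPM in the R2b pools. For these genes no R2b pool reached a con pool. Ndc80 did not pass the test, at -0.31 ± 0.09 (SE, with an FDR of 0.0537), although it was lower in 4 of 4 litters.

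Of the checkpoint genes, 4 of 5 fell, with a median of -0.36. Bub1b was at 280.1, 276, 326 and 311 CPM in the con pools and 216, 196, 232 and 254 CPM in the R2b pools, and its fold change was -0.41 ± 0.09 (SE, with an FDR of 0.0170). Bub3 was at 281, 295, 316 and 264 CPM in the con pools and 218, 221, 251 and 218 CPM in the R2b pools, a fold change of -0.35 ± 0.07 (SE, with an FDR of 0.0137), which was within the range of its class here. Bub1 did not pass, at -0.37 with an FDR of 0.0509, and its groups overlapped. All 4 passenger complex genes fell. Incenp was at 180.1, 167, 205 and 200.5 CPM in the con pools and 139.9, 121, 147 and 161 CPM in the R2b pools. Cdca8 was at 141, 142, 179 and 146 CPM in the con pools and 109, 109, 135 and 125 CPM in the R2b pools. The con pool of litter 3 was the highest for both.

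Mitotic entry genes had the lowest share of calls among the classes, 4 of 11: Cdk1, Ccna2, Cdc25c and Cip2a. Cdk1 was at 205, 224, 263 and 252 CPM in the con pools and 179, 174, 204 and 206 CPM in the R2b pools, and its fold change was -0.31 ± 0.09 (SE, with an FDR of 0.0496). Its lowest con pool, that of litter 1, was below its highest R2b pool, that of litter 4. Ccna2 was at 283, 289.7, 333 and 326 CPM in the con pools and 224, 226, 250.4 and 277 CPM in the R2b pools, with no overlap. Cdc25b was at 67.3, 66.1, 70.5 and 65.9 CPM in the con pools and 67.5, 67.3, 72.4 and 72.2 CPM in the R2b pools. It was higher in the R2b pool of each litter, though its groups overlapped. Its log2 fold change was 0.05 ± 0.05 (SE, with an FDR of 0.499). The remaining entry genes, Ccnb1, Ccnb2, Plk1, Aurka, Bora and Nek2, had fold changes of -0.38 to -0.12 and did not pass. All of them passed with the litter as a block, with an FDR of at most 0.0258. The 4 ubiquitination genes fell by 0.26 to 0.37. Ube2c was at 156, 164, 189.6 and 181 CPM in the con pools and 119.6, 127, 157 and 146 CPM in the R2b pools, and Cdc20 was at 183, 187, 225 and 205 CPM in the con pools and 151, 149, 175 and 179 CPM in the R2b pools. The R2b pools of Cdc20 were all below its con pools, and those of Ube2c overlapped them in 1 pool.

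Of the spindle microtubule genes, 9 of 12 fell, and Hmmr, Gtse1 and Psrc1 did not pass. Tpx2 was at 339, 343, 389 and 373 CPM in the con pools and 269, 259, 311 and 317 CPM in the R2b pools. Ckap5 was at 498, 515, 523 and 509 CPM in the con pools and 429.7, 388, 432 and 443 CPM in the R2b pools. Aspm was at 178, 178, 189.7 and 181 CPM in the con pools and 142, 134, 144 and 156 CPM in the R2b pools, a fold change of -0.33 ± 0.05 (SE, with an FDR of 0.00624). The con pools of Ckap5 and Aspm lay within a narrow range, above all R2b pools.

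Racgap1 had the smallest p of the members in this exposure. It was at 179.9, 179, 183 and 185 CPM in the con pools and 131, 127, 144 and 146 CPM in the R2b pools, means of 182 ± 3.03 CPM in con and 137 ± 9.48 CPM in R2b (SD, n = 4), and fell by 0.41 ± 0.05 (SE) on the log2 scale (edgeR FDR 0.00243). Its con pools lay close together, and every R2b pool was lower. Prc1 was at 189.5, 191, 216 and 178 CPM in the con pools and 156, 156, 177 and 161 CPM in the R2b pools, and Ect2 and Cep55 changed by -0.35 and -0.32. Anln did not pass, at -0.26 with an FDR of 0.0582. All 8 condensin and chromosome genes fell, and their median of -0.40 was the lowest of the classes, a ranking that was not tested. Top2a was at 1012, 997, 1109.6 and 1074 CPM in the con pools and 755, 703, 810.5 and 879.8 CPM in the R2b pools. Mki67 was at 769.6, 809, 783 and 851 CPM in the con pools and 625, 553, 592 and 679 CPM in the R2b pools. In both genes the R2b pool of litter 2 was the lowest. Ncapg was at 149, 146, 177 and 149 CPM in the con pools and 106, 100.05, 118 and 129 CPM in the R2b pools, a fold change of -0.45 ± 0.09 (SE, with an FDR of 0.0150), and Ncapd2 was at 309, 310.2, 343 and 337 CPM in the con pools and 235, 224, 255 and 271 CPM in the R2b pools. The condensin ATPases Smc4 and Smc2 fell by 0.42 and 0.26, and Ncaph by 0.34, so Smc2 again had a smaller fold change than Smc4.

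**Figure D4:**
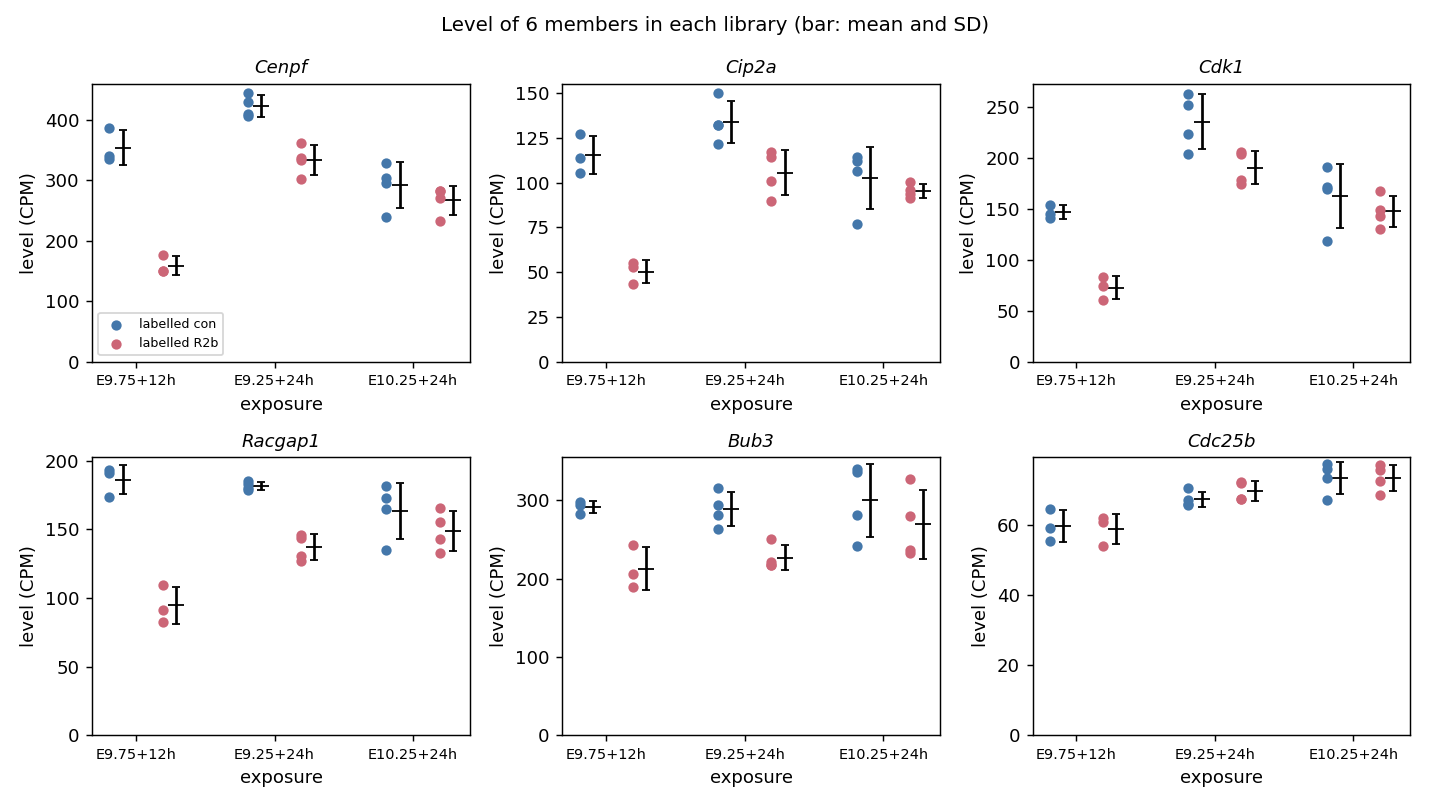
CPM of Cenpf, Cip2a, Cdk1, Racgap1, Bub3 and Cdc25b in each library, by exposure and labelled genotype, with the mean and SD as black bars. At E9.75+12h the R2b points of all but Cdc25b are below the con points. At E9.25+24h the groups of Cdk1 and Cdc25b overlap and the gap of the others is smaller, and at E10.25+24h the groups overlap.

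By litter, the median difference of the members in the early 24 h exposure was -0.33, -0.38, -0.37 and -0.22, and in each litter 55 of 56 were lower, against 49.6% to 51.9% of all genes. The member that was not lower was Cdc25b in each case. Otic epithelium markers were higher in R2b in 4 of 4 litters, at 2327 to 3721 CPM in con and 3278 to 5187 CPM in R2b, with 2 of 12 called higher and 2 lower, or 6 and 2 with the litter as a block. Without the block, 1362 of all 14979 genes were called higher and 973 lower. Of the otic neuroblast markers, 0 of 11 were called by edgeR, and they summed to 215 to 465 CPM in con and 222 to 249 CPM in R2b. Mesenchyme markers ranged from 92.8 to 1298 CPM in con and from 104 to 1214 CPM in R2b, blood markers from 9.71 to 1602 and from 12.6 to 627 CPM, and endothelial markers from 16.2 to 302 and from 15.8 to 140.2 CPM. Hindbrain markers were at 5.57 to 27.4 and 17.0 to 34.9 CPM. With the litter as a block, 3 neuroblast markers, 3 of endothelium, 1 of blood and 1 of mesenchyme were called lower, and 1 neuroblast, 1 hindbrain and 2 mesenchyme markers higher. Of all genes, 20.1% were called lower and 20.5% higher in that fit. The part of these cells in the result was not tested.

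When doxycycline was given from E10.25, no member passed the test. Summed levels were 6844, 9149, 8806 and 9184 CPM in the con-labelled libraries, in litter order, and 8131, 7303, 7953 and 7572 CPM in the R2b-labelled ones, or 8495.7 ± 1114 and 7739.7 ± 373 CPM (SD, n = 4). The library labelled con of litter 1 was the lowest of the 8, and the others labelled con were above all those labelled R2b. By edgeR 0 of 56 members were called, as were 0% of 15203 genes, and DESeq2 also called 0 members. An unadjusted p under 0.05 was found by edgeR for 0 members and, with a lower level, for 0.283% of all genes. All 56 log2 fold changes were below 0, with a median of -0.14, and 49.4% of all genes were below 0. The labelled groups overlapped for every member, and they did not overlap in either direction for 0.914% of all genes. In litter 1 the median difference was 0.27 and 2 members were lower, and in litters 2, 3 and 4 it was -0.34, -0.13 and -0.28 with 55, 53 and 56 of 56 lower. Without litter 1 the median was -0.25, or 15.8% lower, 0 members (0% of genes) were called, 48 had an unadjusted p under 0.05 (lower at that level: 6.6% of all genes), and the remaining groups did not overlap for 50 members, each lower as labelled R2b, against 22.9% of genes in either direction. With the litter as a block and litter 1 left out, 19 members were called lower, at 1.25% of all genes. Litter 3, whose library labelled con had 5106 Ighg1 counts, stayed in all the results without litter 1.

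Litter 1 also stood apart from the other litters in single members. Cenpf was at 239, 295, 303 and 329 CPM in the con-labelled libraries and 269.9, 232, 282 and 281 CPM in the R2b-labelled ones, and Hjurp was at 174, 189.7, 233 and 219 CPM in the con-labelled libraries and 195, 153, 183 and 215 CPM in the R2b-labelled ones. Among the checkpoint genes, Bub1b was at 176, 251, 239 and 256 CPM in the con-labelled libraries and 217, 200.3, 213 and 200.1 CPM in the R2b-labelled ones. In all 3 the lowest library labelled con was that of litter 1. Bub3 was at 242, 336, 281 and 340.4 CPM in the con-labelled libraries and 327, 233, 280.2 and 237 CPM in the R2b-labelled ones, and its highest library labelled R2b was that of litter 1. The checkpoint kinase Ttk was at 52.4, 74.4, 74.7 and 67.8 CPM in the con-labelled libraries and 60.3, 56.6, 61.4 and 59.2 CPM in the R2b-labelled ones, a log2 fold change of -0.18 ± 0.11 (SE, with an FDR of 0.99988). The groups of both genes overlapped. In the passenger complex, Incenp was at 122, 161, 170.1 and 170.4 CPM in the con-labelled libraries and 152, 129.8, 143 and 136 CPM in the R2b-labelled ones. Cdca8 was at 86.1, 135, 125 and 125 CPM in the con-labelled libraries and 104, 104, 109 and 93.9 CPM in the R2b-labelled ones. The kinase Aurkb was at 70.3, 107, 103 and 97.4 CPM in the con-labelled libraries and 86.4, 79.9, 89.0 and 70.4 CPM in the R2b-labelled ones, and its -0.21 ± 0.13 (SE) was the largest fold change of the members. Without litter 1 Aurkb was at -0.35 and second to Psrc1 at -0.37. Litter 1 alone made these groups overlap for Incenp and Cdca8.

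Among the entry genes, Cdk1 was at 118, 192, 169.9 and 172 CPM in the con-labelled libraries and 168, 143, 149 and 131 CPM in the R2b-labelled ones, and Ccna2 was at 207, 267, 281 and 276 CPM in the con-labelled libraries and 233, 222, 249.9 and 214 CPM in the R2b-labelled ones. Cdc25c was at 28.5, 38.8, 38.9 and 37.5 CPM in the con-labelled libraries and 37.0, 28.9, 36.4 and 33.1 CPM in the R2b-labelled ones. For each of them the libraries of litter 1 had the reverse order of the other litters. Cdc25b was at 76.0, 67.1, 73.6 and 77.5 CPM in the con-labelled libraries and 75.7, 68.6, 77.1 and 72.5 CPM in the R2b-labelled ones, and its fold change of -0.0011 ± 0.06 (SE) was the smallest of the members. Its groups overlapped with or without litter 1. Ube2c was at 109, 173, 157 and 159 CPM in the con-labelled libraries and 138, 133, 142 and 114 CPM in the R2b-labelled ones. Cdc20 was at 128, 178, 171 and 189 CPM in the con-labelled libraries and 162, 134, 158 and 131 CPM in the R2b-labelled ones. Tpx2 was at 207, 276, 276 and 283 CPM in the con-labelled libraries and 242, 229, 247 and 228 CPM in the R2b-labelled ones. Each had its lowest library labelled con in litter 1. Ckap5 was at 327, 396, 377 and 404 CPM in the con-labelled libraries and 348, 349, 350.0 and 369.5 CPM in the R2b-labelled ones.

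In cytokinesis, Prc1 was at 127, 163, 148 and 159.9 CPM in the con-labelled libraries and 147, 132, 137 and 136 CPM in the R2b-labelled ones, and Racgap1 was at 135, 173, 165 and 181 CPM in the con-labelled libraries and 165, 132, 155 and 143 CPM in the R2b-labelled ones. Ect2, the member with the smallest p in this exposure, was at 112, 162, 141 and 153 CPM in the con-labelled libraries and 129, 119, 124 and 121 CPM in the R2b-labelled ones. Its means were 142 ± 21.8 CPM as labelled con and 123 ± 4.52 CPM as labelled R2b (SD, n = 4), a fold change of -0.20 ± 0.10 (SE, with an FDR of 0.99988), and without litter 1 its groups did not overlap. Without that litter the smallest p was that of Smc4, with an edgeR FDR of 0.0836, and that of Ect2 was 0.103. Top2a was at 590.0, 848, 778 and 832 CPM in the con-labelled libraries and 720.4, 665, 685 and 671 CPM in the R2b-labelled ones, and Mki67 was at 470.5, 576, 621 and 665 CPM in the con-labelled libraries and 598, 466, 558 and 556 CPM in the R2b-labelled ones. The condensin subunit Smc4 was at 198, 269, 261 and 265 CPM in the con-labelled libraries and 232, 210.2, 221 and 218 CPM in the R2b-labelled ones, and Ncapg was at 85.7, 116, 109.6 and 121 CPM in the con-labelled libraries and 99.2, 92.1, 97.3 and 92.5 CPM in the R2b-labelled ones. Both condensin genes had their lowest library in that labelled con of litter 1. In this exposure the summed otic neuroblast markers ranged from 198 to 267 CPM in libraries labelled con and from 195 to 668 CPM in those labelled R2b, and blood markers from 169 to 672 and from 269 to 5110.3 CPM. The part of these cells, and of the label of litter 1, in the values of this exposure was not tested.

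**Figure D5:**
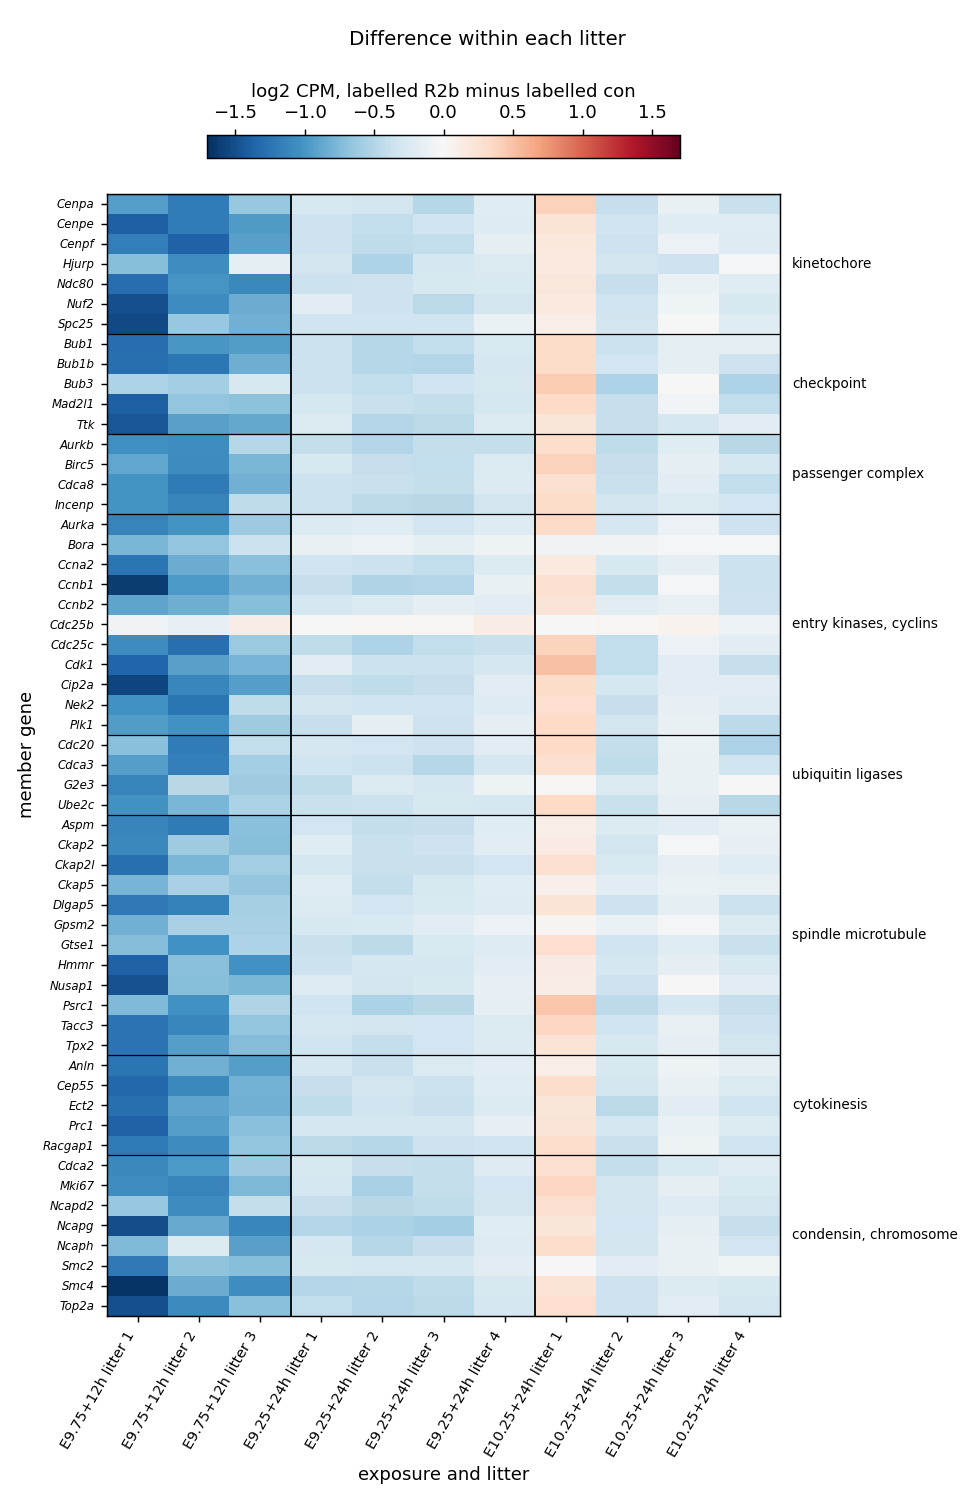
Difference in log2 CPM (library labelled R2b minus library labelled con) of each of the 56 members, in rows by class, within each of the 11 litters, in columns by exposure. Blue is lower and red higher in R2b; the columns of E9.75+12h are the darkest blue, litter 1 of E10.25+24h is the column in which 2 members are below 0, and the row of Cdc25b stays pale throughout.

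The effects of the 12 h and the early 24 h exposure, which share their end stage, were set against each other as a difference, in a fit of all 22 libraries. The difference (early 24 h effect minus 12 h effect) was above 0 in all 56 members, with a median of 0.61 on the log2 scale, against 0.04 over all genes, of which 55.4% were above 0. By edgeR 0 members were called, where 0% of 15688 genes were called, and 50 of 56 members had an unadjusted p under 0.05 (positive at that level: 8.89% of all genes). The smallest p were those of Cenpf, Cenpe and Prc1, with differences of 0.83 ± 0.14, 0.86 ± 0.15 and 0.76 ± 0.14 (SE) and an edgeR FDR of 0.0876 for each. The differences of Bub3 and Cdc25b were 0.12 ± 0.17 and 0.09 ± 0.09 (SE). DESeq2 called 29 members (0.538% of genes), and a fit of the compared exposures alone called 1 (0.00644%). The count also rose to 26 without litter 2 (6.76% of genes) and to 8 without litter 3 (0.134%) of the 12 h exposure. It was 34 and 8 without the R2b pools of those litters (7.3% and 0.0764%), and 16 and 19 without litter 1 of the late 24 h exposure or its library labelled con (0.153% and 0.166%). The exposures differ in duration, starting stage, litters and title prefix, which cannot be told apart.

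The late 24 h exposure and the early 24 h exposure share the duration but not the stage. For their difference (late minus early), 0 members were called by edgeR (0% of genes) or DESeq2 (0.512% of genes). By edgeR, 1 member had an unadjusted p under 0.05 (positive at that level: 2.53% of all genes). The median difference was 0.18, with 1 member below 0. Without litter 1 of the late 24 h exposure the median was 0.07 with 11 below 0, and without its library labelled con alone 0.09 with 3 below 0. Racgap1, Cdc25c and Mki67 had the smallest p, with differences of 0.27 ± 0.13, 0.35 ± 0.17 and 0.29 ± 0.14 (SE) and edgeR FDR of 0.582, 0.595 and 0.595. Without litter 1 of the late 24 h exposure these differences were 0.13, 0.20 and 0.15. Across the 56 members, the effects in the 12 h exposure and the early 24 h exposure had a Pearson correlation of 0.59 and a Spearman correlation of 0.33. The points share libraries and the fits, and genes are not independent replicates. The SD of the log2 fold changes over members was 0.20 in the 12 h exposure, 0.08 in the early 24 h exposure and 0.04 in the late 24 h exposure.

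The members also moved together within the labelled groups. After the mean of each group was removed, the log2 CPM of Tacc3, Tpx2 and Bub1b had correlations of 0.97, 0.97 and 0.97 with the mean of the other members over 22 libraries. Cdc25b had the lowest, 0.11, followed by Gpsm2 with 0.53 and G2e3 with 0.54. The largest deviation of the members was -0.30 on the log2 scale, in the library labelled con of litter 1 in the late 24 h exposure, and the R2b pools of litters 1 and 3 in the 12 h exposure deviated by -0.19 and 0.19. Among 15246 genes outside the lists, those most like the mean of the members were Kif20a, Topbp1, Kif2c, Kif22 and Nup37, with correlations of 0.96, 0.96, 0.95, 0.95 and 0.94, then Mcm10, Pwp1, Kif11, Ticrr and Dbf4 at 0.94. These points share library depth and composition, and no test was made. Groups were taken as labelled, with litter 1 of the late 24 h exposure included. The part of that litter in these correlations and in the ranking of genes was not tested.

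Per kilobase of annotated exon, so that genes of different length can be compared, the con pools in the 12 h exposure held most Tpx2, at 107 ± 2.04 CPM per kb (SD, n = 3), followed by Mki67 at 89.0 ± 4.28 and Top2a at 87.8 ± 5.38. The con pools in the early 24 h exposure held most Top2a, at 116 ± 5.85 CPM per kb (SD, n = 4), and Cdc25c had the lowest level of the members in each exposure, between 6.93 and 9.48 CPM per kb. Mki67 and Top2a in the 12 h exposure did not differ beyond their spread.

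Other genes of the cell cycle mostly moved in the same direction, in lists also chosen with earlier results of these data known. Of all genes tested, 9.78% were called lower in the 12 h exposure and 6.5% in the early 24 h exposure. Of 49 further mitosis genes, 40 fell and 0 rose in the 12 h exposure, with a median of -0.78. Knl1, the kinetochore scaffold that recruits Bub proteins, fell by 1.19 ± 0.12 (SE), from 92.1 to 40.3 CPM, and securin (Pttg1) by 0.78 ± 0.10 (SE). The cohesin protectors Sgo1 and Sgo2a fell by 0.97 and 1.06. In the early 24 h exposure 25 of the 49 fell, with a median of -0.30, Knl1 again first by p at -0.57 ± 0.07 (SE, with an FDR of 0.00222). Of 30 S phase genes, 28 fell in the 12 h exposure and 18 in the early 24 h exposure, with medians of -0.66 and -0.36, among them the ribonucleotide reductase subunit Rrm1 at -0.78 and -0.39. Of 21 regulators of G2 and M phase transcription, 11 and 7 fell and 0 were called higher, while 5 and 3 had a log2 fold change above 0. Those that fell included Foxm1, the forkhead activator of these genes, at -0.76 and -0.41, the MuvB subunit Lin54 at -0.60 and -0.27, and the activator Mybl2 at -0.74 and -0.44. Of 14 FGF readout genes 12 fell in the 12 h exposure and 12 in the early 24 h exposure. Among them was Dusp6 at -1.78 in the 12 h exposure, where the lowest value of the list was -2.54. In each of these exposures 2 readout genes were above 0, and 1 was called higher in the early 24 h exposure. With the litter as a block, 45 of the 49 mitosis genes, 30 of the 30 S phase genes and 14 of the 21 regulators were called lower in the early 24 h exposure. The share of all genes called lower in that fit was 20.1%. In the late 24 h exposure 0 genes of these 4 lists were called by edgeR, with or without litter 1, and the FGF readout median was -0.35, or -0.86 without litter 1. With the block and litter 1 left out, 8 of the mitosis genes, 12 S phase genes, 2 regulators and 11 FGF readout genes were called lower, at 1.25% of all genes. The S phase median was nearer to 0 than that of the members in the 12 h exposure and further from it in the early 24 h exposure, a contrast that was not tested.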

How the data were processed

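Poly(A) RNA of otocyst epithelium was sequenced from stranded libraries, per the labels' protocols. The authors deposited raw read counts per gene for 15736 Ensembl genes, as whole numbers. Novoalign 2.08.03 and mm10 are named in the submitters' processing notes, and the counting tool and its strand setting are not given in the sources used here. Columns were joined to samples through the titles: 22 of 24 samples had a column, and 2 columns naming no sample were not used. The members and the gene lists were chosen with earlier results of these data known. Symbols came from GENCODE M21, which named 15522 of the 15736 gene IDs in the table.

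R2b was tested against con within each exposure with edgeR 4.0.16 in R 4.3.3 (filterByExpr, TMM scaling, quasi-likelihood test), with Benjamini-Hochberg adjustment over all genes tested and a threshold of 0.05. All 56 members passed the filter in each exposure. Differences of effects were contrasts of group means in all 22 libraries. CPM are TMM-scaled. For log2 CPM a prior count of 2 was added, and for fitted fold changes 0.125. The same litter pairs con and R2b, per the labels. Deviations from group means correlated across genes within litters at -0.08, -0.23 and -0.24 (E9.75+12h), 0.36, 0.45, 0.73 and 0.72 (E9.25+24h) and -0.10, 0.37, 0.30 and 0.28 (E10.25+24h), so at E9.75+12h the values do not show the pairing. Without the block, p-values measure the spread between the pools of a genotype, and with it the spread of the differences within litters. No molecular identifiers are described in the labels. The scripts were tested on simulated counts.

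Values in each library are given for the 2 members of each class with the highest mean log2 CPM, the 4 with the smallest p and those with the largest and smallest fold change in an exposure, and the 3 with the smallest p in each difference. Other lists are named by smallest p, and 10 further genes by likeness to the members. Alternatives were DESeq2 1.42.0, median-of-ratios size factors, other filters, a litter block, one fit of all exposures and leaving out each litter or pool.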

Additional observations from a re-analysis of the deposited data

Results flagged for a closer look

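For groups of 4 libraries, each named member and the summed level were examined for a library standing far from the other 3, where its gap to the nearest other, as a share of the group's range, passed Dixon's 95% critical value. Of 116 groups, 9 passed, and chance passes about 1 in 20. In the early 24 h exposure the con pool of litter 3 was apart for Cdca8 (179 CPM, the others 141 to 146) and Ncapg (177 CPM, the others 146 to 149), and the R2b pool of litter 3 for Bub3 (251 CPM, the others 218 to 221). In the late 24 h exposure the library labelled con of litter 1 was low for Cdc25c (28.5 CPM, the others 37.5 to 38.9), Tpx2 (207 CPM, the others 276 to 283), Smc4 (198 CPM, the others 261 to 269), Ncapd2 (242 CPM, the others 307 to 319) and the summed members (6844 CPM, the others 8806 to 9184). That library is the one with 15754 Ighg1 counts. The library labelled R2b of litter 4 was high for Ckap5 (369.5 CPM, the others 348 to 350.0).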

How the results depend on the processing

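In the 12 h exposure the count of calls was 55 under size factors of DESeq2, other filters, DESeq2, one fit of all exposures and the replicate block. The share of all genes called in either direction, given beside the counts here, was 11.9% to 29.1% in these fits. Leaving out a litter or pool gave 39 to 55 (2.92% to 30.5% of genes), and 35 to 54 with the block (1.79% to 21%). In the early 24 h exposure the 43 calls (15.6% of genes) became 44 with other size factors (15.6%), 40 without a filter (14.5%) and 50 with DESeq2 (21.8%). They became 55 with the replicate block (40.6%) and 30 in one fit of all exposures (13.3%). Leaving out a litter or pool gave 1 to 43 (2.15% to 15.2%), and 54 to 55 with the block (29.6% to 41.2%). Fewer samples remained in each of these. In the late 24 h exposure the count was 0 under each alternative except the replicate block without litter 1 (19, at 4.04% of genes). For the difference between the 2 exposures ending at E10.25 the count was 0 with the replicate block, 29 with DESeq2 (0.538% of genes) and 1 in a fit of the compared exposures (0.00644%). It was 0 to 34 when a litter or pool was left out (0% to 7.3%). Between the 24 h exposures the count was 0 under each alternative (0% to 0.536% of genes). The cause of these changes was not tested. The median of the members kept its direction under each alternative, at -1.09 to -0.83, -0.36 to -0.28 and -0.25 to -0.06 when litters or pools were left out. Cdc25b, never called, changed sign: with a litter or pool left out it ran from -0.10 to 0.033 in the 12 h exposure (-0.10 to 0.024 with the replicate block) and from -0.046 to 0.032 in the late one (0.0068 to 0.032 among the block values above 0). Cdc25c ran from -0.22 to 0.016 in the late exposure (-0.23 to 0.026 with the block). Every member had at least 16347 counts over the libraries, and the number of litters limits the precision.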
